A study of Mus musculus with 6 samples.

Results

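In mouse sensory neurons at embryonic stage E11.5, 3928 of 63576 mapped chromatin regions lay in gene deserts, more than 100 kb from every protein-coding gene. They were chosen by position alone. A peak counted as a desert element when its midpoint was outside all RefSeq protein-coding gene spans and more than 100 kb from the nearest end of such a gene. The rule kept 2602 of 43652 ATAC peaks (5.96%), called open elements here, and 1326 of 19924 H3K27ac peaks (6.66%), on chromosomes 1 to 19, X and Y.

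Gene deserts are long stretches with no protein-coding gene, often found beside genes that control development. Enhancers in them can act on a promoter far away, by looping of the chromatin fibre, and many are active only in particular cell types. ATAC-seq marks DNA that is accessible to a transposase. H3K27ac, acetylation of lysine 27 of histone H3, is found at active enhancers and promoters, so an open element that carries it is commonly read as an active one. An open element without it can be poised, bound by an insulator protein or repressed, and these states cannot be told apart from the peak lists used here.

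The cells came from dorsal root ganglia, the clusters of sensory neurons beside the spinal cord, of Runx3-BAC-GFP-CB6 transgenic embryos. They were fixed and sorted by GFP, whose expression was driven by Runx3 on a bacterial artificial chromosome, and the labels call them TrkC proprioceptive neurons, which sense muscle stretch. All 6 samples share this genotype and stage, and 50000 cells entered each preparation: 2 ATAC samples, 2 H3K27ac samples and 2 of input DNA, the last not analysed here. The labels do not say how many embryos a sample pooled. Each assay had 1 consensus list of peak positions without signal, so depth is unknown and no spread between replicates could be given. Intervals below therefore cover counting error over peaks or deserts, which are not animals, and neighbouring peaks are not independent. As a check of the label, H3K27ac lay within 1 kb of an annotated end of 5 of 7 sensory and TrkC neuron markers, including Isl1, Pou4f1 and Elavl4. The same was true of 5 of 6 markers of glia and neural crest, among them Sox10 and Foxd3, of 0 of 5 endothelial, 1 of 5 blood and 2 of 6 mesenchyme and muscle markers. ATAC peaks separated the types less, at an end of 6 of 7, 4 of 6, 2 of 5, 1 of 5 and 4 of 6 markers in that order. Over all 21883 protein-coding genes, 49.3% had H3K27ac at an end, and no such share is given here for ATAC. With 5 to 7 genes in a list, these counts are a rough check only. Sox10 and Foxd3 had no ATAC peak at an end. Ntrk3, which encodes TrkC, and Runx3 had no H3K27ac peak at an end, with 4 such peaks within the span of Ntrk3 and 3 within that of Runx3. The part of glial or neural crest cells in the desert elements was not tested.

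Some of the most acetylated deserts are not empty of genes: they carry microRNA genes, and H3K27ac desert peaks overlapped 5 of the 119 microRNA genes that lay in deserts. These were Mir137, Mir124a-2, Gm51272, Mir125b-1 and Mir125b-2, of which Gm51272 lies within Mir124a-2 and is not a separate locus. By a different measure, 49 of the 1756 non-coding genes with a start in a desert had an H3K27ac peak at a start window. The microRNA genes were named after their values were seen. Whether highly acetylated deserts carry microRNA genes more often than other deserts was not tested. Mir125b-1 and Mir125b-2 are on different chromosomes, in deserts that also hold copies of the miR-99/100 and let-7 genes. A microRNA pairs with messenger RNAs mainly through its seed, bases 2 to 8, given in capitals in the mature sequences below (RefSeq, GRCm38.p6, 5′ to 3′), which are shown because most of these genes lie in the deserts with ranks 3 and 4 by acetylated open elements.
mmu-miR-99a-5p: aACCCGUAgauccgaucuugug
mmu-miR-100-5p: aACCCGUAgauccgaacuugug
mmu-let-7c-5p: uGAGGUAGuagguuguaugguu
mmu-miR-125b-5p: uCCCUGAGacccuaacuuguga
mmu-miR-137-3p: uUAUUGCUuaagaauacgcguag
The seed ACCCGUA was common to miR-99a-5p, from the chromosome 16 desert, and miR-100-5p, from the chromosome 9 desert. Mir125b-1 and Mir125b-2 encode the same mature miR-125b-5p, with the seed CCCUGAG. RNA was not measured. Of the 9 microRNA genes looked up, the 5 above and 4 neighbours within their deserts, 7 had a mature sequence in the table used.

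The start windows of 3 long non-coding RNA genes in the same deserts overlapped acetylated open elements. Mir100hg spans Mir100, Mirlet7a-2 and Mir125b-1, whereas the annotated span of Mir99ahg ends short of Mir99a, Mirlet7c-1 and Mir125b-2. The windows below run from 250 bases before to 50 bases after an annotated start (RefSeq, GRCm38.p6), on the strand of the gene, with the bases inside acetylated ATAC peaks in capitals.
Mir99ahg, chr16:77329078-77329377, plus strand: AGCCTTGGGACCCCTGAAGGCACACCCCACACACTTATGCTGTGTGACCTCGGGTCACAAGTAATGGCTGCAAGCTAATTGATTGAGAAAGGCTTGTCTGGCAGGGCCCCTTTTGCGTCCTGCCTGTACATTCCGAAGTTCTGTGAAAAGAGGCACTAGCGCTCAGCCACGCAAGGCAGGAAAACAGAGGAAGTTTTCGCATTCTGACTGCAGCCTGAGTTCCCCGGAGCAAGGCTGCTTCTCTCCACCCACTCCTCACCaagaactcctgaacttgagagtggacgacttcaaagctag
Mir100hg, chr9:41376276-41376575, plus strand: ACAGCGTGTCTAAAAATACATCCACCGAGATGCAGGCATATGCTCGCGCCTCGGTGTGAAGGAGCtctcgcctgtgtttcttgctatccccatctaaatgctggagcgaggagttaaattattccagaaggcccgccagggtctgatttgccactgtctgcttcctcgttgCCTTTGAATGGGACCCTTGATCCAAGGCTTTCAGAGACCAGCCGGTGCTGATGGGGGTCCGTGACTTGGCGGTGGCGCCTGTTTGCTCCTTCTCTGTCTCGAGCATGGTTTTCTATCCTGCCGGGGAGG
Gm51670, chr9:41579597-41579896, minus strand: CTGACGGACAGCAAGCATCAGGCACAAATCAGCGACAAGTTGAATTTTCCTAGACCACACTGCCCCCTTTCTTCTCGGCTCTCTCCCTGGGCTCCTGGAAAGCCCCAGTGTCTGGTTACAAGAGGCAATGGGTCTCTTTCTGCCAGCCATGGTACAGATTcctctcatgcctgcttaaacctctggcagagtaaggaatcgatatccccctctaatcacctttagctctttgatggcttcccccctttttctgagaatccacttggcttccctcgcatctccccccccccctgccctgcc
Of the 300 bases, 260 of the Mir99ahg window, 194 of the Mir100hg window and 160 of the Gm51670 window were inside acetylated ATAC peaks. The Mir100hg window held 2 separate ATAC peaks, and 1 H3K27ac peak spanned both of them and the stretch between. In the Gm51670 window the ATAC peak lay before the annotated start and did not reach it. The windows were 53.7%, 55.0% and 54.0% G and C, and held 8, 15 and 5 CpG dinucleotides. On either strand, the letters TGTGGT, the core recognised by Runx factors, occurred in the Gm51670 window and in neither of the others, and stand in 16.8% of all 32851 windows of this length. The E-box letters CAGATG occurred in none of the 3 windows and stand in 17.2% of all windows.

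The acetylated share of open desert elements was within the counting error of that of open elements closer to genes. H3K27ac shared at least 1 bp with 447 of 2602 open desert elements, which is 17.2% (Wilson 95% interval 15.8 to 18.7). The comparison class, called nearer intergenic here, was open elements outside genes, more than 1 kb and at most 100 kb from a gene end, of which 1777 of 10652 (16.7%, 16.0 to 17.4) were acetylated. Over all ATAC peaks the share was 39.6%, and over peaks inside genes and away from their ends it was 27.5%. The difference between desert and nearer elements was 0.50 percentage points, with a Newcombe 95% interval from -1.08 to 2.15. Fisher's exact test (two-sided) gave p = 0.539, and 0.539 again once adjusted for the 3 comparisons made. The desert share was the higher one on 10 of 21 chromosomes. It ranged among autosomes from 9.20% of 87 elements on chromosome 15 to 22.3% of 130 on chromosome 18. With the class boundary at 50 kb in place of 100 kb the difference was 1.37 points, and its adjusted p was 0.0467. Most of the overlap was deep: 339 of the 447 acetylated elements (75.8%) lay wholly inside the H3K27ac peak.

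H3K27ac desert peaks, in contrast, held an open element less often than H3K27ac peaks closer to genes. An ATAC peak lay in 404 of 1326 H3K27ac desert peaks, 30.5% (28.0 to 33.0), and in 1461 of 2863 nearer intergenic ones, 51.0% (49.2 to 52.9). Over all H3K27ac peaks the share was 68.9%. The difference, desert minus nearer, was -20.6 percentage points (-23.6 to -17.4), with an adjusted p of 9.84e-36 by the same exact test. The desert share was lower on each of the 20 chromosomes with H3K27ac desert peaks. Of the 404 peaks with an open element, 362 held 1, 41 held 2 and 1 held 3.

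**Figure D1:**
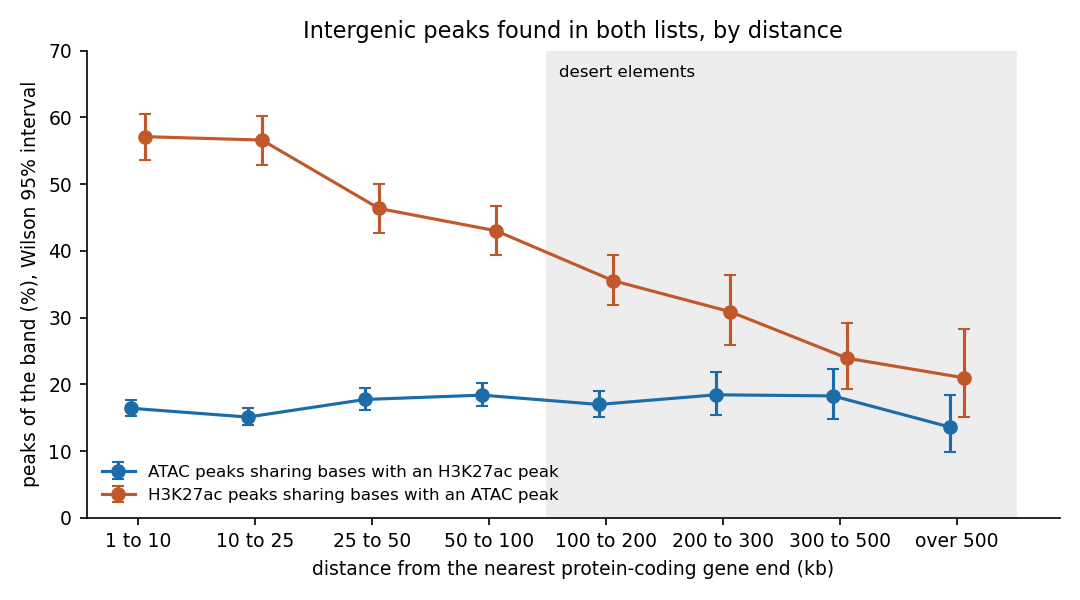
Share of intergenic peaks that share bases with a peak of the other list (vertical axis, percent) by distance from the nearest protein-coding gene end (horizontal axis, kb), with Wilson 95% intervals; desert elements lie in the shaded area. The H3K27ac peaks (orange) fall from 57.1% at 1 to 10 kb to 21.0% beyond 500 kb, while the ATAC peaks (blue) stay between 13.6% and 18.4%.

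The shares changed along the distance from genes for H3K27ac peaks and less so for open elements. Of H3K27ac peaks, 57.1% held an ATAC peak at 1 to 10 kb from a gene end and 43.0% at 50 to 100 kb. In the deserts the values were 35.5% of 602 peaks at 100 to 200 kb, 30.9% of 301 at 200 to 300 kb, 23.9% of 280 at 300 to 500 kb and 21.0% of 143 beyond 500 kb. The intervals of the outermost desert bands, 31.8 to 39.5 and 15.1 to 28.4, did not overlap. For open elements the acetylated share was 17.0% of 1383, 18.4% of 564, 18.3% of 405 and 13.6% of 250 in the same 4 bands, with overlapping intervals. Just outside the boundary, at 90 to 100 kb, 44 of 238 open elements (18.5%) were acetylated, and just inside it, at 100 to 110 kb, 27 of 222 (12.2%). The median distance from a gene was the same for acetylated and unacetylated open elements, 192 kb, whereas H3K27ac desert peaks lay at a median of 192 kb with an open element and 232 kb without one.

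Desert elements were sparse and mostly narrow. Between genes, there were 3.28 open elements per Mb of desert and 12.7 per Mb of nearer intergenic sequence. For H3K27ac the densities were 1.69 and 3.41 peaks per Mb, so the lists differed less here. Acetylated open desert elements had a median width of 228 bp (quartiles 154 and 329), and unacetylated ones 157 bp (123 and 221). The nearer intergenic medians were 281 and 152 bp. H3K27ac desert peaks with an open element had a median width of 1131.5 bp (quartiles 670 and 1798), against 586 bp (334 and 1090) without one. A wide peak has more room to overlap, and the part of width in the shared peaks was not tested beyond leaving out the narrower peaks of each list. With the wider 50% of each list the desert share of H3K27ac peaks with an open element stayed lower, and the difference was -23.4 points.

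Most desert elements stood alone. Another open desert element lay within 10 kb of 670 of the 2602, 25.7% (24.1 to 27.5), whereas 40.5% (39.6 to 41.5) of nearer intergenic elements had one of their own class as close. The median space to the nearest open element of the same class was 35.4 kb in deserts and 14.9 kb nearer to genes. That element could lie in another gap of the chromosome. H3K27ac peaks did not show this gap: 25.9% (23.7 to 28.4) of desert peaks and 24.7% (23.2 to 26.3) of nearer ones had another within 10 kb. Densities differed as well, with 3.28 open elements per Mb in deserts and 12.7 nearer, and 1.69 and 3.41 H3K27ac peaks. The neighbour shares were not adjusted for density, so they cannot tell whether desert elements group less closely than their number would give. When elements within 10 kb were joined, the open elements formed 2237 clusters. Of these, 1932 were single elements, 259 were pairs and 46 had 3 or more, with 5 as the most. H3K27ac desert peaks formed 1126 clusters, 982 of them single and 38 of 3 or more. The one with 6 peaks and most covered bases spanned 32.7 kb between Ebf1 and Clint1 and covered 11832 bp.

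Acetylation went together between neighbours. Among 365 pairs of adjacent open desert elements at most 10 kb apart, both were acetylated in 56, 1 of them in 67 and neither in 242. The neighbour of an acetylated element was acetylated in 62.6% of cases, and that of an unacetylated element in 12.2%. Of the 56 pairs, 43 lay in the same H3K27ac peak, which by itself makes both members acetylated, and 13 in different peaks. For adjacent nearer intergenic pairs the shares were 58.5% and 12.4%. At spaces up to 50 kb the desert values were 44.3% and 14.2%.

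The acetylated elements were spread over many deserts, with few in most of them. Gaps of more than 200 kb between protein-coding genes numbered 1689 and held 785.7 Mb of sequence beyond 100 kb from a gene, called the desert core. Open elements lay in 818 deserts, chromosome ends included. In 247 of these at least 1 was acetylated, in 571 none was, and a further 72 deserts held H3K27ac peaks only. Of the 247, 147 had a single acetylated element, 56 had 2, 25 had 3 and 19 had 4 or more. The 20 deserts that ranked highest by acetylated elements, ties broken by H3K27ac peaks, held 116 of the 447 (26%) in 2.19% of the desert core. They held 9.11% of all open desert elements, of which 48.9% were acetylated. Since the ranking used these counts, they are a description.

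**Figure D2:**
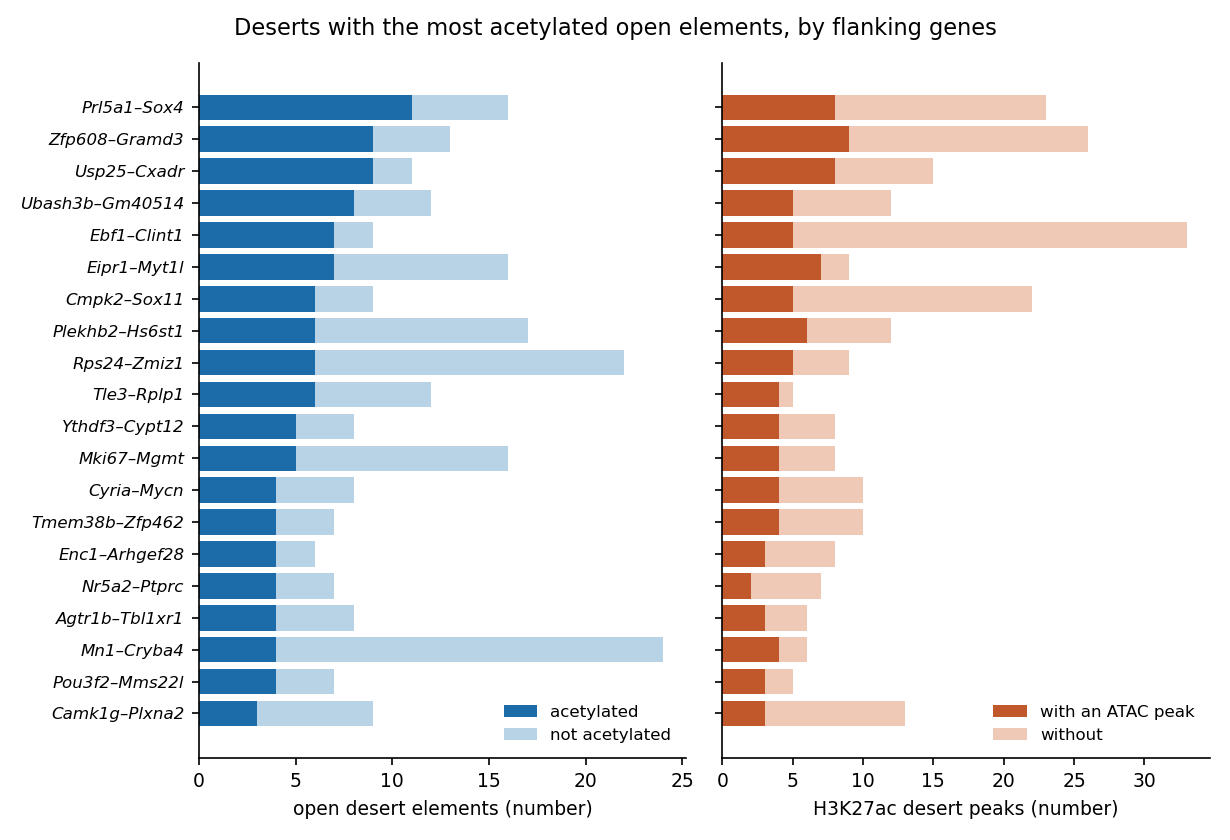
Number of open desert elements (left, horizontal axis) and of H3K27ac desert peaks (right) in the 20 deserts with the most acetylated open elements, named by their left and right flanking genes. Dark bars are peaks found in both lists: the Prl5a1–Sox4 desert leads with 11 acetylated of 16 open elements, and the Ebf1–Clint1 desert has the most H3K27ac peaks, 33, of which 28 hold no ATAC peak.

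Genes for transcription factors of neuronal differentiation flanked several of the highest deserts. Whether they flank these more often than other deserts was not tested. The desert between Prl5a1, of the prolactin family, and Sox4, a SoxC factor of newly formed neurons, lay on chromosome 13 and ranked first: 11 of its 16 open elements were acetylated and it held 23 H3K27ac peaks. The acetylated elements were 167 to 531 kb from the 3′ end of Sox4, and 9 of the 11 were nearer to Sox4 than to Prl5a1. The widest of them was chr13:28757880-28758446 (mm10), 567 bp, 191 kb from Sox4. H3K27ac lay at an end of Sox4 and at no end of Prl5a1. Sox11, the other SoxC gene widely used in young neurons, had deserts on both sides: 6 of 9 open elements were acetylated towards Cmpk2, 194 to 491 kb away from Sox11, and 3 of 6 towards Dcdc2c. The Cmpk2 side had 22 H3K27ac peaks, 17 of them without an ATAC peak, and the Dcdc2c side 7. Towards Cmpk2, 5 of the 6 acetylated elements were nearer to Sox11, but 15 of the 22 H3K27ac peaks were nearer to Cmpk2. Both Cmpk2 and Sox11 had H3K27ac at an end.

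Between Ebf1, a helix-loop-helix factor of differentiating neurons, and Clint1, 7 of 9 open elements were acetylated. This desert had more H3K27ac than any other by both measures, 33 peaks that covered 61460 bp or 9.55% of the core. Its widest peak, chr11:45270335-45277652, was 7318 bp long and held 2 acetylated open elements, at 266 kb from the 3′ end of Ebf1. Only 5 of the 33 peaks held an open element, so the mark extended over stretches with no ATAC peak. Of the 7 acetylated elements, 4 were nearer to Ebf1 and 3 to Clint1, and of the 33 peaks 15 and 18. The desert between Eipr1 and the start of Myt1l, a zinc finger factor that represses non-neuronal genes, was of another kind, with 7 of 16 open elements acetylated and just 2 of 9 H3K27ac peaks without an ATAC peak. Its acetylated elements lay 159 to 523 kb from Myt1l, 5 of 7 nearer to Myt1l than to Eipr1. The desert between Cyria and the proto-oncogene Mycn had 4 of 8 open elements acetylated, all 134 to 255 kb from the 3′ end of Mycn. In the Ebf1, Myt1l and Mycn deserts both flanking genes had H3K27ac at an end.

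**Figure D3:**
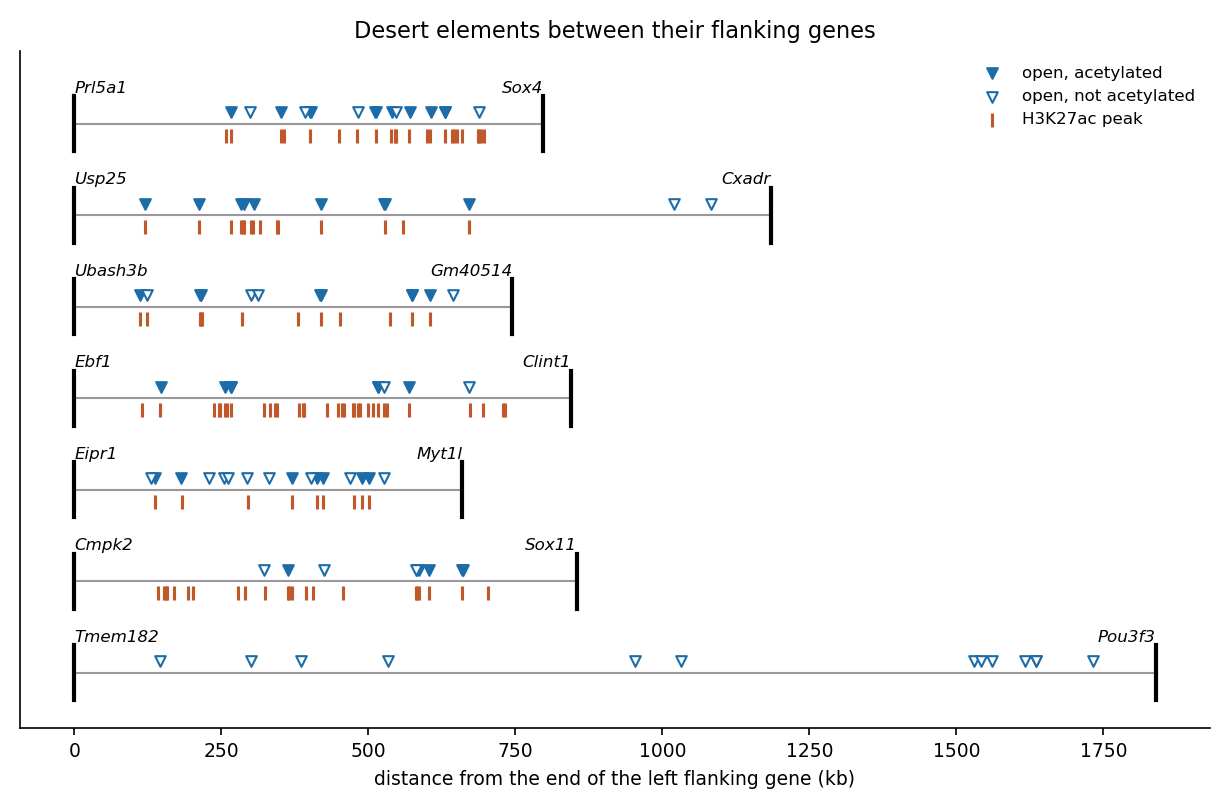
Open elements (blue triangles, filled where acetylated) and H3K27ac peaks (orange ticks) in 7 deserts, drawn by distance in kb from the end of the left flanking gene (horizontal axis); black bars are the ends of the flanking genes. Filled triangles lie toward Sox4 and Myt1l, H3K27ac ticks fill much of the Ebf1–Clint1 desert, and the Tmem182–Pou3f3 desert has 13 open elements and no tick.

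The deserts with ranks 3 and 4 were those of the microRNA clusters. Between Usp25 and Cxadr, 9 of 11 open elements were acetylated, and 8 of the 9 lay in the part nearer to Usp25. One of them, chr16:77329052-77329337, covered the start of Mir99ahg shown above and lay inside an H3K27ac peak of 2945 bp. A pair at chr16:77644011-77644192 and chr16:77644354-77644665 lay in the H3K27ac peak of 2612 bp that overlapped part of Mir125b-2. Between Ubash3b and Gm40514 on chromosome 9, 8 of 12 were acetylated. There the pair at chr9:41579737-41579911 and chr9:41580815-41581022 shared a 3053 bp H3K27ac peak that covered all of Mir125b-1. Mir100 and Mirlet7a-2, in the same desert, had no acetylated open element within 40 kb, and the closest H3K27ac peaks were 9694 bp and 4387 bp away. Neither Ubash3b nor Gm40514 had H3K27ac at an end.

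Other overlapped microRNA genes stood in deserts with fewer acetylated elements. Mir124a-2, a gene for the neuronal miR-124, lay between Ythdf3 and Cypt12, where 5 of 8 open elements were acetylated. Its H3K27ac peak, chr3:17793271-17797160, was 3890 bp wide and held 2 acetylated open elements, and another of 1002 bp lay at chr3:17786113-17787114. Mir137 was covered by an H3K27ac peak of 2531 bp between Snx7 and Dpyd, a desert with 3 of 5 open elements acetylated, and the gene itself overlapped an acetylated ATAC peak. Among all 119 desert microRNA genes, 74 had no open element within 10 kb. Of the 13 with an acetylated open element within 10 kb, 7 belonged to the imprinted cluster between Rtl1 and Dio3, which held 39 of the 119. No matching counts are given for other desert positions, and whether microRNA genes differ from them was not tested.

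The remaining high deserts had neighbours of mixed function. The Zfp608–Gramd3 desert on chromosome 18 ranked second, with 9 of 13 open elements acetylated and 26 H3K27ac peaks. Of its 9 acetylated elements, 8 were nearer to Zfp608, a zinc finger gene that also had H3K27ac at an end. On the other side of Zfp608, towards Csnk1g3, 2 of 4 open elements were acetylated, and there were 16 H3K27ac peaks. Between Plekhb2 and Hs6st1, a heparan sulfate sulfotransferase gene, 6 of 17 were acetylated. Rps24–Zmiz1 had 6 of 22, and Tle3–Rplp1, beside a gene for a Groucho corepressor, had 6 of 12, all nearer to Tle3. Mki67–Mgmt had 5 of 16. The deserts Tmem38b–Zfp462 (4 of 7), Enc1–Arhgef28 (4 of 6), Nr5a2–Ptprc (4 of 7), Agtr1b–Tbl1xr1 (4 of 8), Mn1–Cryba4 (4 of 24) and Pou3f2–Mms22l (4 of 7) followed. Camk1g–Plxna2, beside the gene of a semaphorin receptor, had 3 of 9 acetylated and 13 H3K27ac peaks. In the Nr5a2–Ptprc desert no flanking gene had H3K27ac at an end. All 4 acetylated elements were nearer to Ptprc, the leukocyte gene for CD45, which the blood marker list also holds. They lay 134 to 164 kb from it, and chr1:137898474-137898747 among them overlapped start windows of the non-coding gene Gm4258. The part of blood cells in these 4 elements was not tested.

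Deserts beside several sensory neuron genes had few open elements and wide H3K27ac peaks, and are described here as examples chosen after their values were seen. H3K27ac covered 12.7% of the short core between Nefm, the medium neurofilament gene, and Adam7, with 8 peaks over 21878 bp, and all 3 open elements there were acetylated. Between Isl1, a homeodomain factor of sensory neurons, and Parp8, a single H3K27ac peak of 7420 bp, chr13:116704903-116712322, was the widest of all desert peaks. It held 2 acetylated open elements, 396 and 397 kb from Isl1 and 145 kb from Parp8, so both were nearer to Parp8. On the other side of Isl1, towards Itga1, none of 4 open elements was acetylated. The desert between Ednrb and Pou4f1, another homeodomain gene of sensory neurons, had 8 H3K27ac peaks over 15443 bp but 1 acetylated element of 4. Klf7, a Krüppel-like factor gene of sensory neurons, had 1 of 4 towards Creb1, under H3K27ac peaks that covered 6.44% of the core. Elavl4, for a neuronal RNA-binding protein, had 1 of 1 towards Dmrta2, in a peak of 5210 bp. In bp, other deserts came close to the Pou4f1 one, with 14006 bp between Npvf and Gm38821 and 14188 bp between Cdh18 and Basp1. As a percentage of the core, both were below the Nefm and Klf7 deserts. Cdh18 is itself among the neuronal adhesion genes listed below, and Basp1 had H3K27ac at an end. Whether wide coverage is more common beside sensory neuron genes than beside others was not tested. Runx3 had no gap of over 200 kb on either side, and the gap of 1055 kb between Agbl1 and Ntrk3 held 2 open elements, none acetylated, and no H3K27ac peak.

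Deserts full of open but unacetylated elements stood next to other genes. The desert between Gm36448 and Dad1 on chromosome 14 had 22 open elements and none acetylated. They were between 98 and 129 bp wide, at a median spacing of 29.1 kb, and every one lay within 3.05 kb of an annotated V segment of the T cell receptor alpha and delta locus, at a median of 0.201 kb. The V segments are not typed as protein-coding in the annotation, which is why the stretch counted as a desert, and whether the 22 elements share sequence was not tested. The other 4 deserts with the most open and no acetylated elements were Sall3–Galr1 with 18, Tmem182–Pou3f3 and Gadd45g–Diras2 with 13 each, and Cdh26–4930591A17Rik with 12. Gm6569–Adgrb1 also had 12, and the tie, also even in H3K27ac peaks, was broken by chromosome order. Sall3 and Pou3f3 encode developmental transcription factors. No H3K27ac desert peak at all lay between Tmem182 and Pou3f3 or between Gadd45g and Diras2, although Pou3f3 and Gadd45g had H3K27ac at an end.

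Genes beside acetylated deserts carried H3K27ac at their own ends more often. H3K27ac lay within 1 kb of an end of a flanking gene in 215 of the 247 deserts with acetylated elements, 87.0% (82.3 to 90.7), and in 435 of the 571 with open elements of which none was acetylated, 76.2% (72.5 to 79.5). The difference was 10.9 percentage points (5.06 to 16.0), with an adjusted p of 0.000493 by the same exact test. Of single protein-coding genes over the genome, 49.3% had H3K27ac at an end, and a desert between genes has a pair of chances. Both flanking genes had it in 41.7% of the acetylated deserts and 25.6% of the others, counted between 2 genes. Deserts without any desert element had such a flank in 404 of 808 cases (50%), and were shorter, with a median of 318 kb against 653 kb for acetylated deserts.

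**Figure D4:**
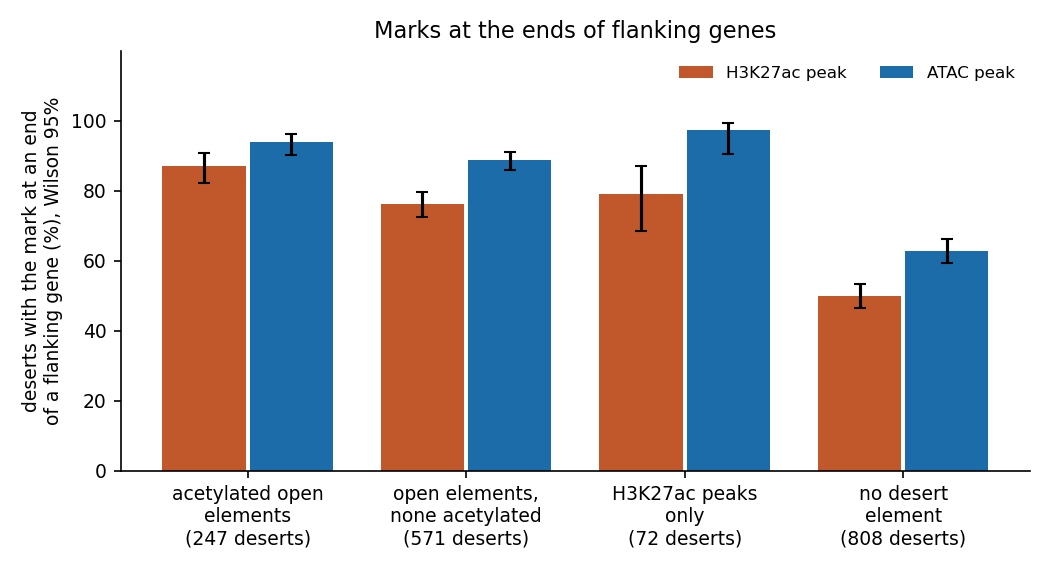
Share of deserts (vertical axis, percent, with Wilson 95% intervals) in which a flanking gene has an H3K27ac peak (orange) or an ATAC peak (blue) within 1 kb of an annotated end, for the 4 kinds of desert on the horizontal axis. The H3K27ac bars stand at 87.0%, 76.2%, 79.2% and 50% from left to right.

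Acetylated deserts also held more open elements, with a median of 4 against 2, so the flanks were set out by that number. With 1 open element, 82.9% of 35 acetylated and 72.7% of 267 other deserts had an acetylated flank. With 2 to 3 the values were 84.2% of 76 and 79.9% of 204, with 4 to 6 they were 89.4% of 66 and 81.0% of 79, and with 7 or more they were 90% of 70 and 66.7% of 21. The acetylated deserts had the higher value in each of the 4 classes, with overlapping intervals. In the 399 deserts where just 1 flanking gene had H3K27ac at an end, acetylated elements lay nearer to that gene in 102 of 184 cases, 55.4% (48.2 to 62.4). Unacetylated elements did so in 545 of 1037, 52.6% (49.5 to 55.6), so the side of the desert did not separate them at this number of elements.

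The functional lists of genes beside acetylated deserts were read against all protein-coding genes, of which 475 of 21883 (2.17%) flanked a desert with an acetylated open element. Of the 1476 genes beside a desert with any open element, 32.2% did. Among 73 transcription factor genes of sensory neurons, 31 flanked a desert with an open element, and for 15 of these (48.4%, interval 32.0 to 65.2) an element was acetylated. They included Bcl11a (3 acetylated), Isl1, Meis1, Nr2f1 and Tshz2 (2 each) beside the genes named above. Among 110 transcription factor genes of other lineages the counts were 43 and 11 (25.6%, 14.9 to 40.2). The highest of these were Sox2 and Sox9, with 3 acetylated elements each over both sides, and Foxf1, Irx5 and Irx6 with 2 each.

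Of 86 genes for neuronal adhesion and synapse organisation, 53 stood beside an open desert element and 18 (34%, 22.7 to 47.4) beside an acetylated one, such as Adgrl2 and Tenm3 with 3 each and Cdh18, Kirrel3 and Slitrk5 with 2. Of 50 axon guidance genes the counts were 25 and 8 (32.0%, 17.2 to 51.6), with Plxna2 and Rgmb at 3 and Gap43, Nrp1, Rgma and Sema6d at 2. Channels and transmitter receptors had 4 of 29 (13.8%, 5.50 to 30.6), from 83 genes, with Grin2a and Kcnh7 at 2. Of 1463 olfactory and vomeronasal receptor genes, 6 were beside an open desert element and 2 beside an acetylated one. The interval of each list held the value over all genes beside open desert elements, 32.2%, except that of channels and receptors, whose upper bound was 30.6%.

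Some desert elements lay in or beside non-coding genes. Spans of long non-coding RNA genes held 607 of the 2602 open elements (23.3%), of which 20.1% (17.1 to 23.5) were acetylated, against 16.3% (14.7 to 18) outside. Nearer to genes the pattern was similar: such spans held 19.8% of open elements, with 22.4% acetylated inside and 15.3% outside. Only 78 open elements touched the start window of a non-coding gene, and 24 of them (30.8%, 21.6 to 41.7) were acetylated, against 16.8% (15.4 to 18.3) of the other 2524. Elements at such windows had a median width of 233 bp, and the others 164 bp. The windows with an acetylated element, 27 in all, had a median of 54.0% G and C and 8 CpG, and the 59 with an unacetylated one 53.0% and 8. Over all 11589 non-coding windows the medians were 48.3% and 4. Firre, a long non-coding RNA of the X chromosome that takes part in nuclear organisation, was one such gene. Its start was an acetylated element of 273 bp between Olfr1324 and Stk26, where 3 of 12 open elements were acetylated and one cluster of 5 open elements spanned 23.0 kb. Whether the elements of this desert share sequence was not tested.

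At the far end of the scale, one element was 2188 kb from any protein-coding gene, between Celf4 and Pik3c3 on chromosome 18. It was 374 bp wide and counted as acetylated, but the H3K27ac peak of 764 bp overlapped only its end and left most of it uncovered. Celf4, for a neuronal RNA-binding protein, had H3K27ac at an end, and 3 of the 7 open elements of this 4511 kb gap were acetylated. The widest open element was of another kind: chr17:39843023-39846376, between the pheromone genes Esp15 and Esp38, was 3354 bp wide, unacetylated, and part of a cluster of 5 open elements within 5.79 kb. The 5 covered 4912 bp of this stretch. Whether they lie in repeated sequence was not tested, so they may not be regulatory elements.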

How the data were processed

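ATAC-seq and H3K27ac ChIP-seq of sorted embryonic mouse sensory neurons were analysed from 1 list of consensus peaks per assay. The deposited files hold start and end positions only, with no count, score or signal. Per the submitters' processing notes, cutadapt 1.18, Bowtie2 2.3.5.1, MACS2 and bedtools were used with the mm10 build. How the consensus of replicates was formed is not given in the sources used here.

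Starts were read as counted from 0 and are printed counted from 1. Of the deposited peaks, 87 ATAC and 4 H3K27ac peaks on other sequences were left out. Gene spans were those of 21883 protein-coding genes of RefSeq GRCm38.p6, the assembly of mm10, and non-coding starts came from RefSeq start windows. A gene's strand was known only where such a window gave it. An open element was acetylated if it shared at least 1 bp with an H3K27ac peak. A gene end was marked if a peak lay within 1 kb on either side of it.

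Shares have Wilson intervals and differences Newcombe intervals, at a confidence level of 95%. The 3 comparisons of shares were tested by Fisher's exact test (two-sided), with Benjamini-Hochberg adjustment and a threshold of 0.05 (scipy 1.17.1, statsmodels 0.14.6). The interval, overlap and test functions were tested on simulated data. All else is description. The members and gene lists were chosen with earlier results of these data known. Named genes flank the 20 highest deserts, the 5 with the most open and no acetylated elements, or are list members beside at least 2 acetylated elements of one desert. The widest and farthest peaks were also named. Nefm, Pou4f1, Klf7, Elavl4, Ntrk3, Csnk1g3, Dcdc2c, Itga1, Npvf, Basp1, Gm6569, Firre, the microRNA genes and the Esp15 locus were named after their values were seen. So was Gm4258. Alternatives changed the distance, the overlap rule, the peaks, the gene types, the chromosomes, the neighbour distance, the gene end window and the ranking. Sequence features of the peaks themselves were not analysed here.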

Additional observations from a re-analysis of the deposited data

How the results depend on the processing

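No paired analysis was possible because each assay has 1 consensus list without values per replicate, and for the same reason no replicate was left out in turn. The number of open elements was 4489 beyond 50 kb, 1219 beyond 200 kb, 795 for the wider 50% of each list and 292 when genes of any type were kept 100 kb away. The H3K27ac peaks numbered 2014, 724, 467 and 184 under the same settings, since each admits more or fewer peaks by construction. The difference in acetylated share was 1.37 points beyond 50 kb (Fisher's exact test, adjusted p = 0.0467) and -1.84 points for the wider 50% (adjusted p = 0.243), the only setting of 8 with the other sign. The cause was not tested. With an H3K27ac peak allowed within 500 bp it was 1.67 points (Fisher's exact test, adjusted p = 0.0605).

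The lower share of H3K27ac desert peaks with an open element and the higher share of acetylated flanks kept their direction and their side of the threshold under all 7 and all 6 alternatives run. They ranged from -23.4 to -18.2 points and from 8.29 to 19.8 points. The share of open elements with a neighbour was 16.6% within 5 kb, 39.0% within 20 kb, 57.3% within 50 kb, 31.5% for elements beyond 50 kb, 21.7% beyond 200 kb and 11.6% for the wider 50%. Of the 20 highest deserts, 12 were also among the 20 highest by H3K27ac peaks, 11 by covered bp and 3 by acetylated elements per Mb of core, a measure that favours short cores. Leaving out the 9 deserts at chromosome ends, a choice made after seeing the data, changed no call.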
